A study of Mus musculus with 12 samples.

Results

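The predicted miRNAs with reads are 46 mature sequences that the authors' miRDeep2 run proposed from the merged small RNA reads of the basolateral amygdala (BLA), beyond the annotated mouse miRNAs. They were chosen by their summed tag counts: each had at least 60 tags over the 12 libraries. The count sheet held 1060 mature miRNAs once repeated lines were counted once, of which 753 were annotated and 307 were predictions, and the other 261 predictions had fewer than 60 tags. Just inside the limit were chr9_36168 and chr5_28161, with 73 and 72 tags, and just outside it were chr1_1172 and chr2_19260, with 57 tags each. A prediction is called here by the end of its deposited name, which is a chromosome and a running number and gives no position.

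The libraries came from male C57BL/6J mice of 10 weeks, with 3 mice in each of 4 groups. RE mice (retrieval-extinction) had 3 tone-shock pairs and later 1 retrieval tone, followed 1 h afterwards by 2 extinction sessions with 18 tones each. E mice (extinction) had the same conditioning and extinction sessions without the retrieval tone, F mice (fear memory formation) had the 3 tone-shock pairs alone, and C mice (control) went through the F procedure without shocks. The tissue was collected 1 h after the last training, with C mice collected alongside F mice, so the time since the conditioning procedure was longer in RE and E mice than in F and C mice.

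A miRNA is cut from a hairpin precursor as a short RNA, and bases 2 to 8 from its 5′ end, the seed, carry most of its pairing to target mRNAs. The cuts are not exact, and trimming or tailing moves the 3′ end further, so a hairpin gives several forms of a mature miRNA, called isomiRs, which mostly share the 5′ end and therefore the seed. A prediction program scores stacks of reads on possible hairpins, and fragments of other folded RNAs, such as the snoRNAs that guide chemical modification of ribosomal RNA, can also form such stacks.

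The first set of sequences shows 8 of the 9 most abundant predictions (all but chr3_22521) above the annotated sequence that each lies in or contains, because this overlap is the main property of these predictions. Capitals mark the seed (bases 2 to 8), all sequences run 5′ to 3′, and both members of each pair were read from the deposited count sheet.
chr13_9509: uCUUUGGUuaucuagcuguaug
mmu-miR-9-5p: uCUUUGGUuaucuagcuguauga
chr13_10257: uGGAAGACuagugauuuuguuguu
mmu-miR-7a-5p: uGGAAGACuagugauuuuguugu
chr17_15734: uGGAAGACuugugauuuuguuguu
mmu-miR-7b-5p: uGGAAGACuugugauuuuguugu
chr12_7882: gCUCGACUcaugguuugaacc
mmu-miR-434-5p: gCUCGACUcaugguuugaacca
chr7_31446: uCUCUGGGccugugucuuag
mmu-miR-330-5p: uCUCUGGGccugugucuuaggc
chr8_34357: uGGCUCAGuucagcaggaac
mmu-miR-24-3p: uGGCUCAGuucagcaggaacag
chr9_36730: aGCUGGUGuugugaaucaggccgu
mmu-miR-138-5p: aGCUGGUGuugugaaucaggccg
chr11_7051: aACAAUAUccuggugcugagu
mmu-miR-338-5p: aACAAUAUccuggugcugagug

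In each of these pairs the seed was the same and the sequences differed only at the 3′ end, by 1 or 2 bases. chr13_10257 and chr17_15734 also shared their seed with each other, as forms of miR-7a-5p and miR-7b-5p, and no other seed occurred in more than 1 of the 46. In RefSeq (GRCm38.p6) the mature miR-7b-5p has 24 bases and is identical to chr17_15734, whereas the annotated entry of the count sheet has 23.

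Of the 46 predictions, 24 lay whole within an annotated mature sequence of the same sheet or contained it whole, with no mismatch. Among the predictions with fewer than 60 tags this held for 10 of 261 (3.83%), against 52.2% of the 46. Of the 24, 14 ended earlier than the annotated sequence, 9 ended later and 1 had the same end, and the end was moved by 1 base in 18 and by 2 bases in 5. The first base, and with it the seed, was the annotated one in 22 of the 24. These 24 held 1032582 of the 1046553 tags of the 46 predictions (98.7%).

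The 2 exceptions are shown because another first base gives another seed.
chr12_7855: gUGGGCCUgacguggagcugg
mmu-miR-770-3p: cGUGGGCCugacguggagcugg
chr6_30751: aGUACUGUgauaacuga
mmu-miR-101a-3p: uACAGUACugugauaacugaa
chr12_7855 started 1 base later than miR-770-3p, a miRNA from an exon of Meg3 in the imprinted Dlk1-Dio3 region. chr6_30751, of only 17 bases, started 3 bases later than miR-101a-3p. It also lies whole within miR-101c of the sheet, which had 47 tags, and miR-101a-3p, with 28412 tags, is taken as its partner. Its name gives chromosome 6, but the hairpin gene of the annotation that it matched, Mir101a, lies on chromosome 4 (chr4:101346958-101346974, minus strand, in an exon of the lincRNA E130102H24Rik), and the Mir101c gene on chromosome 9 matched as well.

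The other 22 predictions fell into 4 kinds. For 4 of them a RefSeq hairpin (GRCm38.p6) held the sequence on an arm that the count sheet does not list, and these are shown with the RefSeq mature sequence where the ends differ.
chr13_9098: cUUGCAUGugggccugugugcu
chr3_23806: uCUGUGGGucuguuuguccguc
chr12_7837: cCCUGAACuaggggucuggaga
mmu-miR-345-3p: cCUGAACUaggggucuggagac
chrX_38808: gGUGCUCAcauguccuccucca
mmu-miR-764-5p: gGUGCUCAcauguccuccu
chr13_9098 was identical to miR-12184-5p of RefSeq and chr3_23806 to miR-12194-3p. chr12_7837 started 1 base before miR-345-3p, so its seed is not the RefSeq one. chrX_38808 had the start of miR-764-5p and 22 bases in place of 19. The gene of chr13_9098 lies in an intron of Gpld1 (chr13:24980056-24980077, plus strand), that of chr3_23806 in an intron of Nbea (chr3:55887284-55887305, minus strand), and that of chrX_38808 in an intron of Htr2c (chrX:147002285-147002306, plus strand).

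The second kind had a miRNA gene only in the GENCODE annotation of GRCm38 or lay next to an annotated mature sequence. chr7_33140 matched Gm23873, a miRNA gene in an intron of the lincRNA A230057D06Rik (chr7:61750468-61750489, minus strand), and shared at most 12 bases in a row with any annotated sequence of the sheet, miR-344h-3p. chr2_20915 shared 21 bases in a row with miR-133a-3p but was shifted against it, so neither contained the other.
chr7_33140: uGAUAUAGccaagcccgacugu

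The third kind was 5 predictions inside snoRNAs, with 2048 tags together (0.196%). chr7_32401 lay in Snora30, within introns of Srcap (chr7:127527980-127527999, plus strand), and its sequence also occurs in the snoRNA gene Gm25133 (chr14:96588933-96588952, plus strand). chr7_32181 lay in Snora3, in the ribosomal protein gene Rpl27a (chr7:109520120-109520141, plus strand). chr9_35747 lay in Gm24455, in an exon of a Taf1d transcript, chr7_33566 in Gm27991, and chr4_25348 in snoRNA copies Gm22154 and Gm25788 within introns of Pabpc4.
chr7_32401: cAGCUGUUacucaagggaac
chr7_32181: uCCGAGGCuagagucacgcuca

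The last kind, 11 predictions with 10786 tags (1.03%), matched no annotated mature sequence, no RefSeq hairpin and no GENCODE small RNA gene. A prediction of this kind, chr13_9868, held 8104 of these tags, and its longest run shared with an annotated sequence was 10 bases (miR-493-3p). A genome sequence and an annotation of tRNA genes were not used here, so the origin of these 11 is not given.
chr13_9868: aUAAUCUGaagguccugagu
chr13_9856: cUAUGGCUuccucgcucugaggg

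The predictions were 17 to 24 bases long, with a median of 22, and 40 of the 46 had 20 to 24 bases. U was the first base of 23 (50.0%), against 42.1% of the 423 annotated miRNAs with at least 60 tags. Of the 35 predictions that matched a miRNA or snoRNA gene, 33 had a match on the chromosome in their name, and the exceptions were chr6_30751 and chr3_23687, a form of miR-1224-5p, whose gene lies on chromosome 16. Of all 22 without an overlap, 3 shared a seed with an annotated miRNA of the sheet, chr18_17490 with miR-149-5p, and chr7_32401 and chr2_22127 with miR-6928-3p and miR-6966-3p, both of which had fewer than 60 tags.

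The libraries held 1093194 to 2353896 tags each, and every pair of replicates differed by more than sampling noise, with a chi-square of at least 34.4 times its degrees of freedom. The count sheet has no value of 1 among its 14028 values, so a listed 0 can stand for a lone tag. The neuronal markers miR-124-3p, miR-9-5p and miR-128-3p were counted in every library, with 62781 to 103881 CPM (tags per 1000000 tags of the library, after TMM normalization) together, and miRNAs used as markers of other tissues were counted as well. Of the 5 retina markers 4 were counted in every library (928 to 2277 CPM together, with miR-211-5p at 0 somewhere). Most of that sum was miR-204-5p, also used below as a marker of the choroid plexus, with 725 to 2228 CPM alone. Of the 3 muscle markers 2 were counted in every library (395 to 1311 CPM, miR-133a-3p at 0 somewhere). The prediction chr2_20915, shifted against miR-133a-3p, had 6.46 to 20.5 CPM. Of the 3 epithelium markers 2 were counted in every library (31.1 to 612 CPM, miR-205-5p at 0 somewhere). As described from the same data, 4 libraries, RE replicate 4, E replicate 2, F replicate 1 and C replicate 2, were led by let-7g-5p and the other 8 by miR-148a-3p. These sets cut across the training groups and were drawn from the data, so differences between them are given with no p. Because the tissue was sequenced in bulk, fewer cells of a type cannot be told apart from less RNA per cell.

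The 46 predictions took 5.64% of all tags. By group they took 5.03% ± 0.378 in RE libraries, 5.59% ± 0.831 in E libraries, 5.77% ± 0.402 in F libraries and 6.03% ± 0.773 in C libraries (SD, n = 3 each). The single libraries lay between 4.74% and 6.70%, and each trained group overlapped C. The tags were very unevenly spread: chr13_9509 alone held 47.7% of them, the top 4 held 87.9% and the top 12 held 98.3%, whereas 18 predictions had fewer than 300 tags and the median sum was 512.5.

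The plot of all members by library shows these levels in order of abundance. 8 of the 46 were among the 100 most abundant miRNAs of the sheet, 40 were counted in all 12 libraries and 6 were listed at 0 in at least 1.

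**Figure D1:**
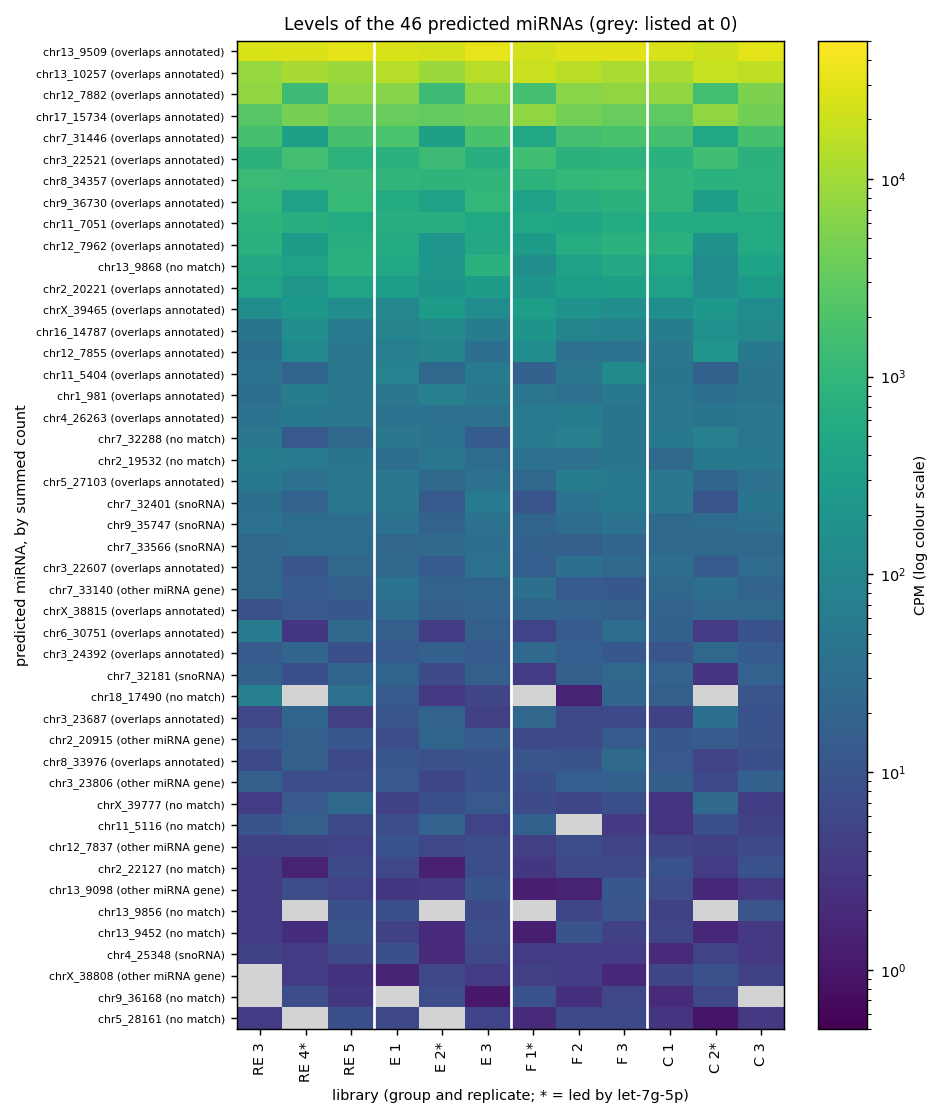
CPM (log colour scale, grey where the count is listed at 0) of each of the 46 predicted miRNAs (rows, by summed count, with what they matched) in each of the 12 libraries (columns, by group; an asterisk marks the 4 libraries led by let-7g-5p). The rows run from chr13_9509, at 21208 to 32468 CPM, to predictions at a few CPM, and rows such as chr12_7882 and chr7_31446 are darker in the 4 marked columns.

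chr13_9509 is miR-9-5p, a miRNA abundant in brain that regulates neuronal progenitors, without its last base. It had 25504, 27142 and 31035 CPM in RE libraries, 24896, 23652 and 32468 in E libraries, 22393, 27879 and 29501 in F libraries, and 24529, 21208 and 31131 in C libraries. It was the member with the smallest spread, with a coefficient of variation of 13.7% over the 12 libraries, and all groups overlapped. With 498883 tags it ranked 11 of 1060, next to the annotated miR-9-5p with 510225 tags, and made up 49.4% of the tags of the pair. Its sequence occurs in Mir9-2 (chr13:83738821-83738842, plus strand), Mir9-1 (chr3:88215613-88215634, plus strand) and Mir9-3 (chr7:79505279-79505300, plus strand), and the copies cannot be told apart.

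chr13_10257 and chr17_15734 carry the miR-7 seed. miR-7 is a miRNA of neurons and neuroendocrine cells that in brain binds the circular RNA Cdr1as at many sites. chr13_10257 had 8054, 11313 and 8785 CPM in RE libraries, 14504, 8774 and 14246 in E libraries, 19902, 15097 and 11686 in F libraries, and 11554, 18983 and 16324 in C libraries. All RE libraries lay below all C libraries, while E and F libraries overlapped C. chr17_15734 had 2502, 4787 and 3150.4 CPM in RE libraries, 3426, 3127 and 3646 in E libraries, 7334, 4486 and 3482 in F libraries, and 2891, 7356 and 4252 in C libraries, with overlap throughout. The longer forms had more tags than the annotated ones in both pairs, 250195 against 136217 for miR-7a-5p and 80020 against 60794 for miR-7b-5p. chr13_10257 fits Mir7-1 in an intron of Hnrnpk (chr13:58392840-58392863, minus strand) and Mir7-2 (chr7:78888295-78888318, plus strand), and chr17_15734 lies in Mir7b (chr17:56243017-56243040, plus strand).

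chr12_7882 and chr12_7962 come from the imprinted Dlk1-Dio3 region, a large miRNA cluster transcribed from the maternal chromosome. chr12_7882, a form of miR-434-5p encoded opposite to an exon of Rtl1 (chr12:109594528-109594548, plus strand), had 7379, 1331 and 6642 CPM in RE libraries, 6216, 1357 and 6531 in E libraries, 1637, 6517 and 7242 in F libraries, and 7594, 1509 and 5204 in C libraries. The low value of each group was that of the library led by let-7g-5p. chr12_7962, a form of miR-329-5p (chr12:109713503-109713525, plus strand), had the same kind of pattern, with 188 to 267 CPM in the 4 libraries led by let-7g-5p and 516 to 798 CPM in the other 8.

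chr7_31446, a form of miR-330-5p from Mir330 in Eml2 (chr7:19181486-19181505, plus strand), had 332 to 492 CPM in the 4 libraries and 1658 to 1877 CPM in the other 8. Its seed is also that of miR-326-3p. chr9_36730 is miR-138-5p, a brain-enriched miRNA that limits the size of dendritic spines, with 1 more base (chr9:122682898-122682921, plus strand), and it had 322 to 386 CPM in the 4 libraries and 607 to 1114 CPM in the other 8. For both forms the annotated partner did not follow: miR-330-5p had 112 to 158 CPM in the 4 libraries and 72.3 to 106 CPM in the other 8, and miR-138-5p had 96.0 to 128 CPM and 66.2 to 101 CPM. In these pairs the prediction, not the annotated sequence, carried most of the tags, with 24297 against 1937 for miR-330-5p and 13137 against 1750 for miR-138-5p.

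chr11_7051 is miR-338-5p without its last base, from a hairpin in an intron of Aatk (chr11:120014817-120014837, minus strand) whose other arm, miR-338-3p, promotes the maturation of oligodendrocytes. It had 10921 tags against 95 for the annotated sequence, 99.1% of the pair, and 436 to 862 CPM with overlap of all groups. chr3_22521, a form of miR-124-3p, the most neuron-specific of the common miRNAs, had 19161 tags against 17317 and 671 to 1579 CPM. chr2_20221, a form of miR-674-3p, had 5275 tags against 2133 and 140.2 to 417 CPM. chr13_9868, the most abundant prediction with no match, had 524, 364 and 773 CPM in RE libraries, 492, 217 and 793 in E libraries, 146, 367 and 526 in F libraries, and 476, 129 and 398 in C libraries, with overlap of all groups and the lowest value of each group again in the library led by let-7g-5p.

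Over the 24 pairs, the prediction had the larger sum in 18 and the annotated sequence in 6. The prediction was larger in all 12 libraries in 16 pairs and smaller in all 12 in 3, and its share of the pooled tags ran between 1.05% for chr6_30751 and 99.1% for chr11_7051. The sources used here do not say how tags were divided between a prediction and the annotated sequence that contains it.

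**Figure D2:**
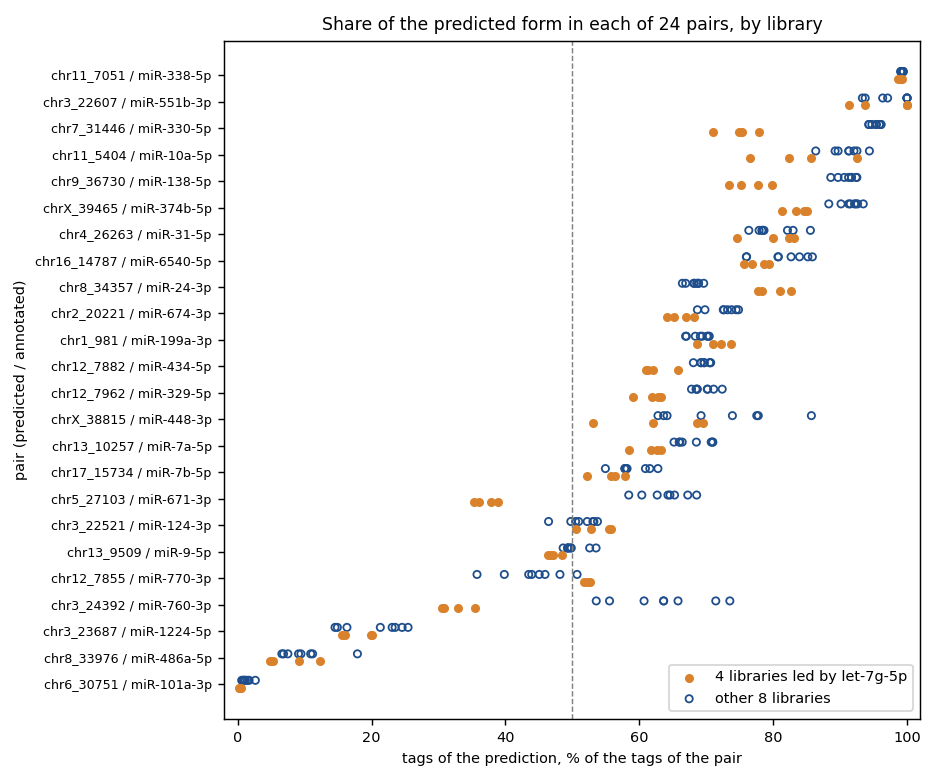
Tags of the predicted form as a percent of the tags of the pair (x axis) for each of the 24 pairs (y axis, ordered by the pooled share), with filled points for the 4 libraries led by let-7g-5p and open points for the other 8. In 13 pairs the filled and open points do not overlap, for example at 71.1% to 77.9% against 94.3% to 96.1% for chr7_31446.

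The shares differed between the library sets in many pairs. In 13 of the 24 pairs the share of the prediction did not overlap between the 4 libraries led by let-7g-5p and the other 8, lower in the 4 in 11 pairs and higher in 2. chr5_27103, a form of miR-671-3p with 1 more base, made up 35.3% to 38.8% of its pair in the 4 libraries and 58.4% to 68.6% in the other 8, so the more abundant form changed between the sets. chr3_24392, a form of miR-760-3p with 2 more bases, did the same, with 30.5% to 35.4% in the 4 libraries and 53.6% to 73.5% in the other 8. This pair had few tags, 295 against 387 over the 12 libraries, with miR-760-3p at only 3.30 to 12.7 CPM in the other 8. The pairs with a higher share in the 4 libraries were chr8_34357 of miR-24-3p, with 77.8% to 82.6% and 66.4% to 69.6%, and chr12_7855 of miR-770-3p, with 51.8% to 52.6% and 35.8% to 50.7%. Shorter and longer predictions were both among those with a lower share: chr13_9509 ends earlier than miR-9-5p and had 46.4% to 48.4% in the 4 libraries and 48.6% to 53.5% in the other 8, and chr13_10257 ends later than miR-7a-5p and had 58.4% to 63.3% and 65.2% to 71.0%.

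The training groups each hold 1 library of the set of 4, and the shares by group are given here for some of the pairs. For chr13_10257 the share was 68.4% ± 4.43 in RE libraries, 64.6% ± 1.76 in E libraries, 66.3% ± 4.49 in F libraries and 64.3% ± 5.28 in C libraries (SD, n = 3 each). For chr8_34357 it was 72.6% ± 8.74 in RE libraries, 72.2% ± 7.61 in E libraries, 71.5% ± 5.43 in F libraries and 72.0% ± 5.46 in C libraries. For chr13_10257 and chr8_34357 the difference between any groups was smaller than the spread within the RE group. For chr17_15734 of miR-7b-5p the share was 60.8% ± 2.55 in RE libraries and 56.4% ± 1.46 in E libraries. In F and C libraries it was 58.2% ± 2.62 and 56.1% ± 3.41. Its RE libraries (57.9% to 62.8%) all lay above its E libraries (54.9% to 57.8%) but overlapped F and C. No test was run on the shares.

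Levels also differed between the library sets. Of the 46 predictions, 21 (45.7%) did not overlap between the 4 libraries and the other 8, 6 of them higher and 15 lower in the 4. Over all 469 miRNAs with at least 60 tags, the share was 39.4%, with 20.5% higher and 19% lower in the 4. By kind, the 21 were 14 of the 24 forms of annotated miRNAs (6 higher and 8 lower), 2 of the 5 in snoRNAs, 5 of the 11 with no match (all 5 lower) and 0 of the other 6. chr13_9856, with no match, was listed at 0 in all of the 4 libraries and had 3.87 to 10.6 CPM in the other 8. Its 94 tags are few, and no fold is given for it. The snoRNA fragments chr7_32401 and chr7_32181 had 10.3 to 18.4 CPM and 2.87 to 8.45 CPM in the 4 libraries, against 35.8 to 58.3 CPM and 16.3 to 24.5 CPM in the other 8. At the other end chr12_7855 had 92.9 to 207 CPM in the 4 libraries against 33.1 to 70.2 CPM, a log2 difference of 1.55, and chr3_23687 had 19.8 to 33.0 CPM against 4.41 to 10.8 CPM, a log2 difference of 1.83.

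To ask whether the predictions differed with training, counts of all miRNAs were compared with the quasi-likelihood test of edgeR, with all 12 libraries in 1 fit. Of the 46 predictions 43 were among the 431 miRNAs that passed the filter on low counts, and chr4_25348, chr5_28161 and chrX_38808 were not tested. The criterion of the study's methods was used. It asks for a log2 fold change of 1 or more in either direction and an unadjusted p under 0.05. For miRNAs of RE against E the paper also used a lower limit on the fold change, which was not applied here. Benjamini-Hochberg adjusted p-values were taken over all 431. Each library is a separate mouse, and the p-values measure the spread between libraries of a group. Each group holds 1 library led by let-7g-5p, so that spread includes the difference between the library sets. The common dispersion of edgeR, its measure of this spread, was 0.184 with group alone and 0.0294 with a term for the library set. RE, E and F were each compared with the same C libraries, so these comparisons are not independent of each other.

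Against C, 0 predictions passed the criterion in the F group, where 1.16% of all miRNAs tested did (5 of 431), and 0 in the E group, where 0.696% did (3 of 431). At an unadjusted p under 0.05 there were 0 predictions in either comparison, beside 1.86% of all miRNAs for F (8) and 1.62% for E (7), and at an adjusted p under 0.05 edgeR called 0% of all miRNAs in each of the 4 comparisons. DESeq2 likewise gave 0 predictions past the criterion in both. The median log2 fold change of the predictions was 0.08 for F and 0.03 for E, beside 0.05 and 0.01 over all miRNAs tested. The smallest p among the predictions was that of the snoRNA fragment chr7_33566 for F, with 17.4, 16.7 and 21.6 CPM in F libraries and 25.0, 23.9 and 24.9 CPM in C libraries. Its F libraries all lay below its C libraries, but its log2 fold change was −0.40 (SE 0.23), with an adjusted p of 1.00 in edgeR. For E it was chr4_26263, a form of miR-31-5p, with 39.4, 36.9 and 36.4 CPM in E libraries and 48.0, 43.6 and 51.1 CPM in C libraries. Its E libraries all lay below its C libraries, and the log2 fold change was −0.34 (SE 0.20), with an adjusted p of 0.997 in edgeR.

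In RE against C, 1 prediction passed the criterion, chrX_38815, which was lower in RE. Of all miRNAs tested, 2.78% passed (12 of 431), 1.16% as lower (5). At an unadjusted p under 0.05 there were 3 predictions (6.98%), beside 5.57% of all miRNAs (24), and the median log2 fold change was 0.12 for the predictions and 0.06 over all. In RE against E, 0 predictions passed in edgeR or in DESeq2, beside 0.928% of all miRNAs (4), and 2 predictions (4.65%) had an unadjusted p under 0.05, beside 2.32% (10). Of these 2, chrX_38815 had a log2 fold change of −0.97, under the limit of 1 in size. The medians were 0.03 for the predictions and 0.05 over all.

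**Figure D3:**
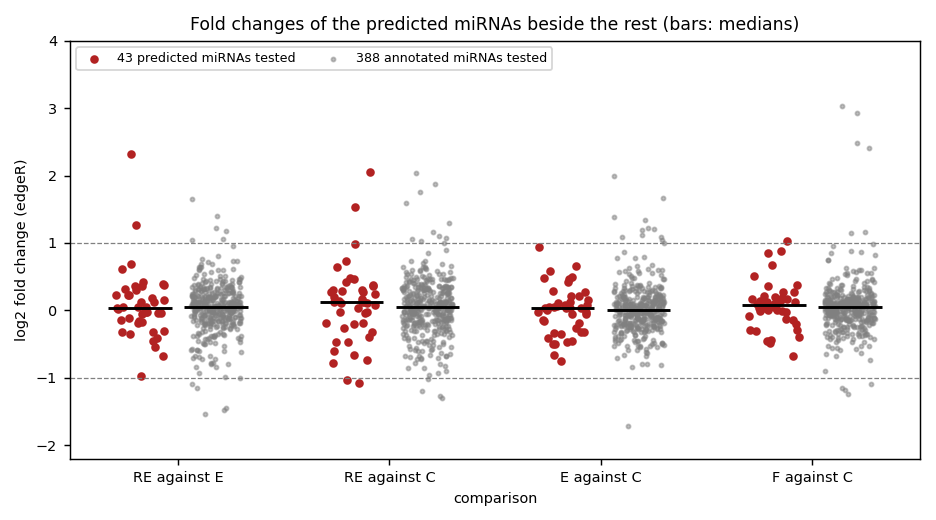
Log2 fold changes of edgeR (y axis) for the 43 predicted miRNAs tested (red) and the 388 annotated miRNAs tested (grey) in the 4 comparisons (x axis), with medians as bars and dashed lines at the limit of 1 in size. The medians of the predictions lie between 0.03 and 0.12, and the highest red points are at 2.32 in RE against E and 2.06 in RE against C.

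chrX_38815 is miR-448-3p without its last base, from Mir448 in an intron of Htr2c (chrX:147158281-147158301, plus strand), the gene of the serotonin receptor 2C.
chrX_38815: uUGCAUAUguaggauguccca
mmu-miR-448-3p: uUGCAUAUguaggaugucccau
It had 8.70, 12.3 and 11.6 CPM in RE libraries, 29.3, 16.4 and 19.1 in E libraries, 20.03, 19.0 and 16.3 in F libraries, and 18.8, 24.4 and 24.2 in C libraries. All RE libraries lay below every library of the other groups, and those groups overlapped each other. The log2 fold change was −1.04 (SE 0.29) in RE against C, with an adjusted p of 0.656 in edgeR, and −0.97 (SE 0.29) in RE against E, with an adjusted p of 0.732. Without RE replicate 3 the change in RE against C was −0.95, below the limit of 1 in size.

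The annotated miR-448-3p had 3.87, 5.38 and 6.61 CPM in RE libraries and 11.1, 21.5 and 6.90 CPM in C libraries, with a log2 fold change of −1.30 (SE 0.53, adjusted p = 0.743 in edgeR). With the tags of both forms summed, an alternative chosen after seeing the data, the change was −1.18 (SE 0.30, adjusted p = 0.365 in edgeR). In that fit 1 of the 24 pairs, this one, was past the criterion in RE against C, beside 10 of all 410 miRNAs tested. The second prediction of the Htr2c introns, chrX_38808 of miR-764-5p, had 0, 3.84 and 2.75 CPM in RE libraries and 5.56, 8.61 and 4.83 CPM in C libraries, so that all RE libraries lay below all C libraries, but it had too few tags to be tested. The annotated miRNAs of the same introns had log2 fold changes of −0.52 to −0.86 in RE against C besides miR-448-3p, the largest in size for miR-1298-3p (adjusted p = 0.324 in edgeR). miR-204-5p, a marker of the choroid plexus, where Htr2c is also strongly expressed, had 725 to 1029.7 CPM in RE libraries and 812 to 2228 CPM in C libraries, and its part in these values was not tested.

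chr8_34357 is miR-24-3p without its last 2 bases, from Mir24-2 (chr8:84208875-84208894, plus strand) or Mir24-1 (chr13:63301251-63301270, plus strand). It had 1302, 1138 and 1235 CPM in RE libraries, 961, 892 and 944 in E libraries, 844, 1065 and 1136 in F libraries, and 989, 787 and 866 in C libraries. All RE libraries lay above all E, F and C libraries. The log2 fold change was 0.48 (SE 0.18, adjusted p = 0.743 in edgeR) in RE against C and 0.39 (SE 0.18, adjusted p = 0.999) in RE against E, both under the limit of 1. With a term for the 4 libraries led by let-7g-5p, the adjusted p in RE against C was 0.0455 at the same log2 fold change of 0.48, and the other alternatives gave 0.133 to 0.999. The annotated miR-24-3p had 589, 239 and 624 CPM in RE libraries and 461, 218 and 378 CPM in C libraries, with overlap, and a log2 fold change of 0.46 (SE 0.46, adjusted p = 0.998 in edgeR).

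chr13_10257, the form of miR-7a-5p given above, had a log2 fold change of −0.74 (SE 0.29, adjusted p = 0.743 in edgeR) in RE against C. The annotated miR-7a-5p had 3295, 6558 and 3592 CPM in RE libraries and 5306, 13523 and 8385 CPM in C libraries, and its change was −1.02 (SE 0.43, adjusted p = 0.760). In the sum of both forms the change was −0.88 (SE 0.34, adjusted p = 0.862 in edgeR). In RE against E the change of chr13_10257 was −0.41 (SE 0.29), and its E libraries overlapped its RE libraries.

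**Figure D4:**
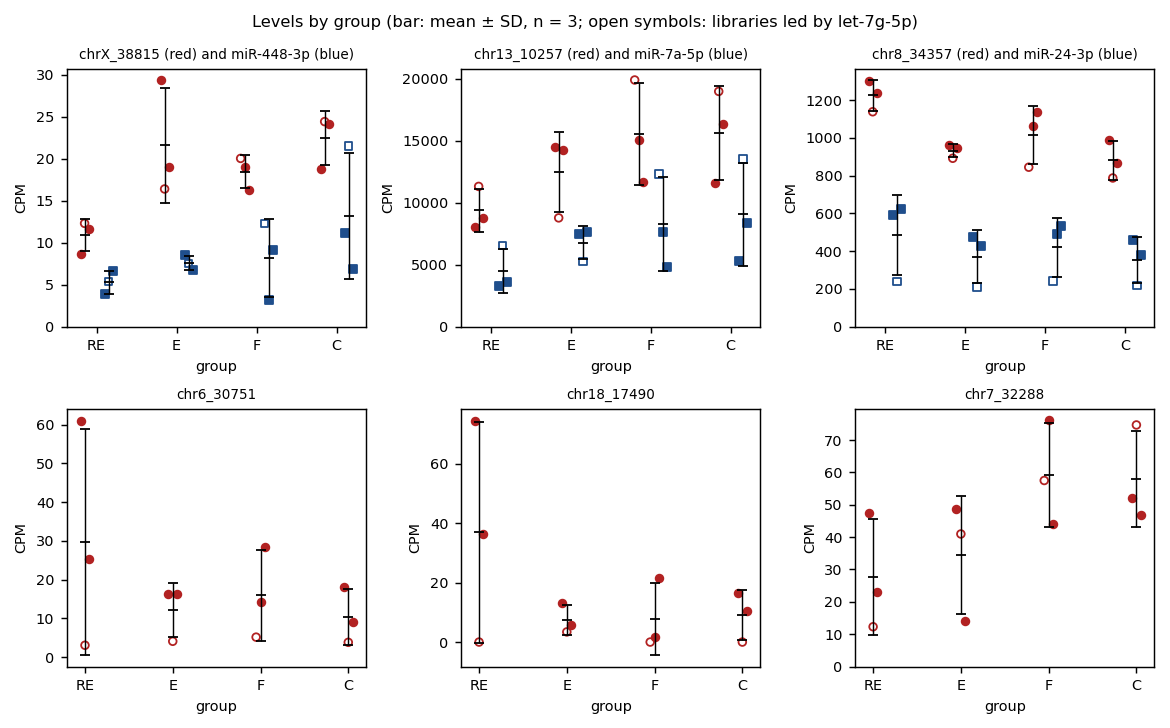
CPM (y axis) of 6 predicted miRNAs by group (x axis) in each library, with the annotated partner as squares for 3 of them, bars for the mean ± SD (n = 3) and open symbols for the libraries led by let-7g-5p. chrX_38815 has its 3 RE libraries at 8.70 to 12.3 CPM, below all other libraries, whereas chr18_17490 runs between 0 and 74.4 CPM within the RE group.

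The predictions with the largest fold changes had wide spreads. chr18_17490, with no match, had 74.4, 0 and 36.4 CPM in RE libraries, 13.1, 3.41 and 5.61 in E libraries, 0, 1.59 and 21.6 in F libraries, and 16.7, 0 and 10.4 in C libraries. Its RE libraries held the highest value and also a listed 0, and the log2 fold change was 2.06 (SE 1.53, adjusted p = 0.998 in edgeR) in RE against C and 2.32 (SE 1.56, adjusted p = 0.999) in RE against E. With no filter on low counts the adjusted p was 0.0183 in RE against C and 0.0127 in RE against E, and the other alternatives gave 0.161 to 0.999 and 0.0775 to 1.00. Without RE replicate 3 the change in RE against C was 1.05. All 4 libraries led by let-7g-5p had 3.41 CPM or less of it.

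chr6_30751, the 17-base form of miR-101a-3p, had 60.9, 3.07 and 25.3 CPM in RE libraries, 16.2, 4.10 and 16.3 in E libraries, 5.17, 14.3 and 28.3 in F libraries, and 18.1, 3.83 and 8.98 in C libraries. The log2 fold change was 1.53 (SE 0.95, adjusted p = 0.998 in edgeR) in RE against C and 1.26 (SE 0.94) in RE against E, and without RE replicate 3 they were 0.49 and 0.20. The groups overlapped, and the annotated miR-101a-3p, at 979 to 2247 CPM, had a change of 0.39 in RE against C. chr7_32288, of 17 bases and with no match, had 47.4, 12.3 and 23.1 CPM in RE libraries and 52.1, 74.7 and 46.9 CPM in C libraries, with overlap, and a log2 fold change of −1.08 (SE 0.53, adjusted p = 0.998 in edgeR).

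The forms of a pair mostly had fold changes of the same sign. Of the 21 pairs with both forms tested, the signs were the same in 16 for F against C, 16 for E against C, 19 for RE against C and 15 for RE against E. Both forms come from the same hairpin and the same libraries, so these are not independent measurements. The median size of the difference between the forms was 0.15 on the log2 scale in RE against C and 0.18 in RE against E. The largest was that of chr6_30751 and miR-101a-3p, 1.15 in RE against C and 1.07 in RE against E.

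By kind, the 11 predictions with no match summed to 718 ± 236 CPM in RE libraries, 619 ± 271 in E libraries, 494 ± 201 in F libraries and 483 ± 158 in C libraries (SD, n = 3 each), and the 5 in snoRNAs to 115 ± 25.6, 118 ± 43.6, 101 ± 42.5 and 106 ± 30.2 CPM in RE, E, F and C libraries. In the kind with no match the mean of RE libraries was above that of C libraries by more than the SD of the C group but not of the RE group, and in the snoRNA kind the means differed by less than the SD of any group. The predictions on other miRNA genes, 6 in all, summed to 55.0 ± 7.27 CPM in RE libraries, 66.5 ± 6.62 in E libraries, 57.5 ± 6.55 in F libraries and 65.5 ± 4.22 in C libraries (SD, n = 3 each). A member of this kind, chr13_9098, had 1.29 to 11.5 CPM over the 12 libraries. No test was run on these sums.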

How the data were processed

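Small RNA was sequenced from the basolateral amygdala of 12 mice (RE, E, F and C, 3 libraries each). The authors trimmed the reads with Cutadapt, merged the trimmed reads of all samples to predict further miRNAs with miRDeep2, aligned each library to annotated and predicted precursors with Novoalign, and deposited a tag count for each mature miRNA. They also deposited values scaled per library and rounded to whole numbers, which were treated as a score and used only in an alternative. The submitters' processing notes name CASAVA 1.8 and hg38, a human build, although the samples are from mouse, so no coordinate of the authors' build is given. The design note of the series calls the profiles retinal, whereas the sample labels give basolateral amygdala, which was followed here. Positions here come from RefSeq (GRCm38.p6) and GENCODE hairpin and small RNA genes that held the mature sequence whole.

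Predictions with at least 60 tags over the 12 libraries were kept, lines with the same sequence and the same counts being counted once. A prediction was taken to overlap an annotated miRNA when either sequence lay whole within the other. Counts of all miRNAs that passed filterByExpr (minimum count 10) were normalized by TMM and tested with the quasi-likelihood test of edgeR 4.0.16 in R 4.3.3, with group as the only term, and p-values were adjusted over all 431 miRNAs tested. The script was tested on simulated data. Python 3.11.15 with pandas 2.3.3 and matplotlib 3.10.9 was used for overlaps, levels and plots. With 1093194 to 2353896 tags in a library, a prediction near the limit of 60 tags had only a few tags in each.

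The members and lists were chosen with earlier results of these data known. Named members were the 12 with the highest mean CPM, those past the criterion or with the smallest p in a comparison, the 4 most abundant with and without an overlap, those next to the limit, and their annotated partners. Others, shown for a sequence, a position, a library set or the largest fold changes, were chosen after their values were seen. Alternatives were DESeq2 1.42.0, 2 other normalizations, no filter, the compared groups alone, each library left out, a term for the library set, the other 8 libraries alone, a replicate block, limma 3.58.1 on log2 of the score with a pseudocount of 1, other overlap rules (a shared run of 16 bases, or 1 mismatch), other limits (30 and 120 tags) and, chosen after seeing the data, the sum of the tags of each pair.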

Additional observations from a re-analysis of the deposited data

How the results depend on the processing

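The count of predictions past the criterion in RE against C, 1 in edgeR with all libraries, was 2 with DESeq2 and with library totals in place of TMM, 4 with no filter on low counts, 4 with a term for the 4 libraries led by let-7g-5p, 4 in the other 8 libraries alone, and 1 to 3 with a library left out (3 without RE replicate 4). The count over all miRNAs, 12 in the first fit, was 13, 14, 20, 14, 16 and 7 to 20 in the same order (20 without RE replicate 4). In RE against E, where it was 0, it was 1 with library totals, 2 with no filter, 1 with those groups alone, 2 with the term, 3 in the other 8 libraries and 0 to 2 with a library left out (2 without RE replicate 4), and over all miRNAs, 4 in the first fit, it was 6, 17, 8, 10, 17 and 4 to 14 (14 without RE replicate 4). In E against C it was 1 in the other 8 libraries, chr4_25348 (6 over all miRNAs, 3 in the first fit), and 0 in every fit without a library, and in F against C it was 0 to 1 (chr7_33140 without F replicate 1, with 6 over all miRNAs and 5 in the first fit). More miRNAs were tested with no filter, and the filter was run anew where libraries or groups were left out. These counts are therefore not parts of the same total. The predictions added in RE against C were chr7_32288, chr18_17490, chr6_30751, chrX_39777 and chr16_14787. In RE against E they were chrX_38815, chr18_17490 and chr6_30751, and the cause was not tested. There chrX_38815 passed with library totals (log2 fold change −1.11), with those groups alone (−1.02) and in the other 8 libraries (−1.20). It also passed there in some of the fits with a library left out. The adjusted p of chrX_38815 in RE against C ran between 0.0775 and 0.999 over the alternatives. Its change there was −0.97 with limma, under the limit of 1 in size. With no filter, 12 of all miRNAs passed the criterion in E against C (3 with it) and 9 in F against C (5). The log2 fold changes of chr7_33566, chr4_26263, chrX_38815, chr18_17490, chr6_30751 and chr8_34357 kept their sign under each alternative. Of the 46 predictions, 25 overlapped an annotated sequence by a shared run of 16 bases and 24 with 1 mismatch allowed, and limits of 30 and 120 tags gave 60 and 37 predictions.

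With the replicate number as a block, 0 predictions passed the criterion in F against C and in E against C. It was also 0 in the first fit, where 5 and 3 of all 431 miRNAs passed. The count over all miRNAs with the block is not given here. The deviations of libraries with the same number correlated at −0.69 to 0.72. The correlations were negative where the libraries came from different library sets and positive where they came from the same set. The deviations still held the difference between the sets, so they cannot show whether the numbers paired the libraries. RE shares only 1 number with each other group, and no such fit was made for it.

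Low counts limit the rarest predictions: 18 of the 46 had fewer than 300 tags over the 12 libraries, and 3 had too few to be tested. The median coefficient of variation over the 12 libraries was 42.8% for the predictions, against 34.7% for annotated miRNAs with at least 60 tags.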
